A study of Mus musculus with 28 samples.

Results

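The genes described here are 35 genes of the p53 pathway and of apoptosis, looked up by symbol in the platform annotation of a deposited table of log2 expression values. Of these, 33 had a probe set that carries 1 gene symbol, among 19938 genes represented in that way, and each of the 33 had 1 such probe set. The filter on low values, a mean over all arrays at or above the 30th percentile of genes (6.42 on the log2 scale), was passed by 32 of them and by 13956 genes in all. Trp53 and Bax were not analysed here, because no probe set with 1 symbol carries their names. Fas, a death receptor, lay below the filter, with group means of 4.73 to 5.24, and was left out of the tests.

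The 28 Affymetrix Mouse Gene ST arrays profiled mouse embryonic stem (ES) cells in 9 groups, and the series asked what hotspot mutations of DICER1, the ribonuclease that cuts microRNA hairpins, do in these cells. The parental lines without a transgene were Dicer-null, with genotype Dicer-/- (n = 3), and Dicer-WT, with genotype Dicer+/+ (n = 2), and the labels name 1 line for each genotype. All transgenes were carried by Dicer-/- ES cells. Cells with the pLD-puro-ENvA vector received eGFP (n = 3), DICER1 D1709A (n = 4), DICER1 E1705K (n = 3), DICER1 D1810Y (n = 3) or wildtype DICER1 (4 arrays). Cells with the pLD-puro-PGKnvA vector received DICER1 D1709N (n = 2), DICER1 E1813Q (n = 2) or wildtype DICER1 (2 arrays), so the WT-DICER1 group had n = 6. No eGFP array used the second vector. The fit carried a term for that vector, which only the WT-DICER1 group can inform, and the deposited WT-DICER1 means of both vectors are equal, so the term was estimated at 0 within 7.5e-05 for every gene tested. It therefore moved no difference in the fit over all arrays and only widened standard errors, and vector and mutation cannot be told apart for D1709N and E1813Q, nor in results that pool them with the other mutants or compare them. The labels do not say that replicate arrays came from separate cultures or clones, so the p-values speak for the variation among arrays, part or all of which may be technical.

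The transcription factor p53 is held at low activity by the ubiquitin ligase Mdm2 and its relative Mdm4, and stress frees it to switch on genes for cell cycle arrest, DNA repair and cell death. Death signals converge on the BCL2 family, in which BH3-only proteins release the pore formers Bak1 and Bax from their inhibitors, and cytochrome c then assembles Apaf1 and Casp9 into the apoptosome, while membrane death receptors act through Casp8. ES cells divide rapidly, and are known for a low threshold for apoptosis.

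Ppm1d, Ccng1, Eda2r, Bid and Gadd45g are shown with their promoter windows, because these 5 genes separated every mutant DICER1 array from every WT-DICER1 array in the values given further on. Every mutant array was higher for 2 and lower for 3 of the 32 genes tested, beside 8.97% and 8.05% of all genes. Such separation is thus not particular to this list. Each window holds the 250 bases upstream of a RefSeq start of the gene, 5′ to 3′ on the strand of the gene, from the RefSeq tables on GRCm38.p6, and capitals mark a match to the 10-base p53 consensus decamer, which is its own reverse complement. Of the 35 genes, 27 had a window, and 9 of these 27 (33.3%) held a decamer in at least 1 window, against 8.2% of the 27025 genes with a window. The windows are chr11:85311004-85311253 on the plus strand for Ppm1d, chr11:40755287-40755536 on the minus strand for Ccng1, chrX:97377210-97377459 on the minus strand for Eda2r, chr6:120916825-120917074 on the minus strand for Bid and chr13:51846425-51846674 on the plus strand for Gadd45g.
Ppm1d: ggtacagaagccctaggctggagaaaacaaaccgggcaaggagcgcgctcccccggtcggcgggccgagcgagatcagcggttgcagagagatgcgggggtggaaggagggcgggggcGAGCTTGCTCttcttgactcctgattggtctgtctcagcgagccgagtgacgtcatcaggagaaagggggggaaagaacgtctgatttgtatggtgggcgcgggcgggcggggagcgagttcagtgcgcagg
Ccng1: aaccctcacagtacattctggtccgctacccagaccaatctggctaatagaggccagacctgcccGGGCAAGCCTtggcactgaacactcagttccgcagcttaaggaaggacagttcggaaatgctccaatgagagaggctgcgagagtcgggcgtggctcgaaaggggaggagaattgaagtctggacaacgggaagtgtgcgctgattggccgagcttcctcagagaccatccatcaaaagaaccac
Eda2r: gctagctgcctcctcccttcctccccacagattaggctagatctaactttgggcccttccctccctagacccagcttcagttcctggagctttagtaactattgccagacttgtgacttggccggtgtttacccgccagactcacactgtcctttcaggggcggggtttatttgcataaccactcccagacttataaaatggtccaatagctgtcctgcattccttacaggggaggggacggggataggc
Bid: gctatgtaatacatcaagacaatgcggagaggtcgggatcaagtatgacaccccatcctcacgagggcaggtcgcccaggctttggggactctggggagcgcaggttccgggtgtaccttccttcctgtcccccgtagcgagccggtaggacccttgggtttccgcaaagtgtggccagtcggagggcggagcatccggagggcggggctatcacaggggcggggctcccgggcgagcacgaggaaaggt
Gadd45g: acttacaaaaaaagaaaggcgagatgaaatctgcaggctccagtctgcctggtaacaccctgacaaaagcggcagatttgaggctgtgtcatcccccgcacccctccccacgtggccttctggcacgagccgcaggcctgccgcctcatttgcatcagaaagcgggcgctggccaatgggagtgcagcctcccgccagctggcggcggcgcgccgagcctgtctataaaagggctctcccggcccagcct
The decamer of Ppm1d began 132 bases before the start and that of Ccng1 185 bases before it, and the windows of Eda2r, Bid and Gadd45g held none. The other genes with a decamer were Mdm2, Trp53, Bax, Gadd45a, Aen, Sesn1 and Polk. A match describes the letters of the window and is not evidence of binding.

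Levels below are log2 expression values, so a difference of 1 is a doubling, and a gene was called where its adjusted p lay under 0.05 (limma, Benjamini-Hochberg over 13956 genes). In every comparison roughly 40 to 60% of all genes were called, and each count over the 32 genes in the main fit is set beside that share. Dicer1 itself was 9.27 ± 0.04 (SD, n = 3) in Dicer-null and 10.68 ± 0.05 (n = 2) in Dicer-WT cells, a difference of -1.42 (SE 0.0683, adjusted p = 3.52e-15), and its group means lay between 8.91 and 9.39 in the transgene cells. It was no higher with wildtype DICER1 (9.31) than with eGFP (9.39), and whether this probe set detects the transgenes was not tested. The mean level of 12 ES cell markers lay between 11.44 and 11.80 on all arrays, but single markers moved. Between Dicer-null and Dicer-WT cells 3 rose and 4 fell (58.3% called, beside 57.9% of all genes). In mutants against wildtype DICER1, 4 were called higher and 7 lower (91.7%, beside 60.1%). Against eGFP the counts were 4 and 4 for wildtype DICER1 (66.7%, beside 59.5%) and 4 and 3 for the mutants (58.3%, beside 53.1%). Lin28a had group means from 7.51 (Dicer-null) to 10.68 (D1810Y), and was 9.86 in Dicer-WT cells. The arrays numbered 4 of D1709A and of WT-DICER1 stood apart: over the 32 genes the median distance from arrays 1 to 3 of the group was 0.221 for each, against 0.0284 to 0.0375 for single WT-DICER1 arrays 1 to 3 against the others. Their deviations from the group means mirrored each other to within 1.33e-04 over all probe sets, and the deviations of the first arrays of 5 groups (Dicer-null, D1709A, E1705K, WT-DICER1 and Dicer-WT) summed to 0 within 1.83e-04. The arrays are thus not independent of each other, and p-values are approximate. For the transgene comparisons, values without the arrays numbered 4 are given where leaving them out changed a call or moved a called value by over 1.5 times. For wildtype DICER1 against eGFP the fitted difference then rests on WT-DICER1 arrays 1 to 3. In the pooled mutant values such fits do not remove array 4 fully. The reason is that the deposited PGKnvA wildtype mean equals that of the 4 ENvA wildtype arrays, array 4 included. The vector term is then no longer 0, and it shifts D1709N and E1813Q in the pooled mutant values. Array profiles of bulk cells cannot tell fewer cells of a type from less RNA per cell.

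**Figure D1:**
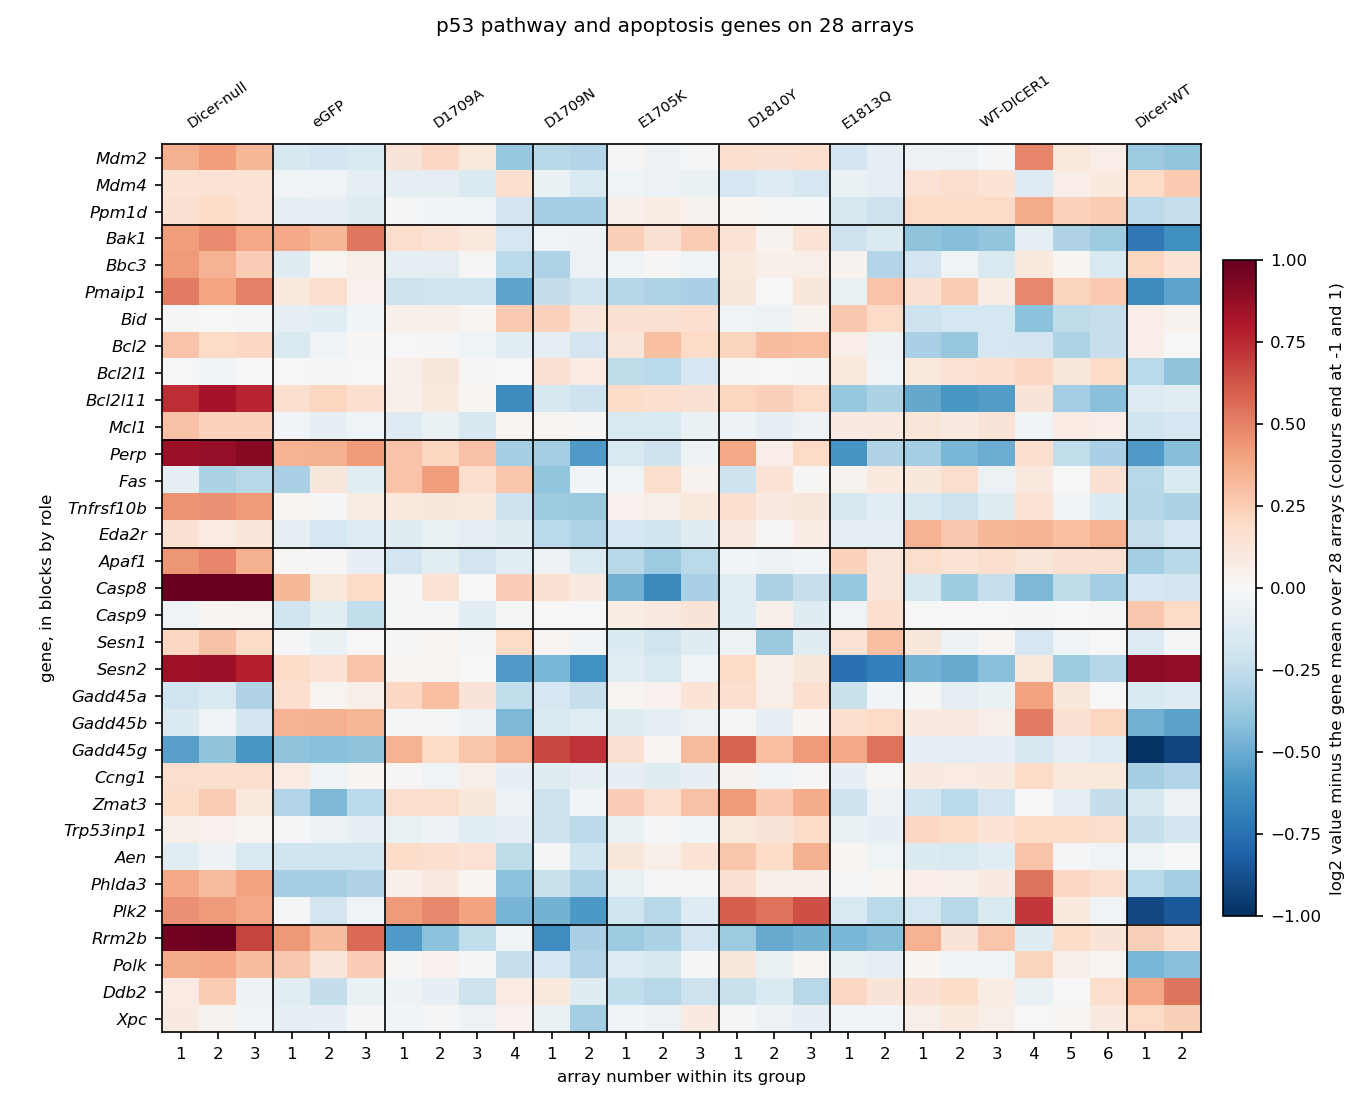
Log2 value minus the gene's mean over 28 arrays (colour, ending at -1 and 1) for 33 genes in rows, in blocks by role, and 28 arrays in columns, in blocks by group. The Dicer-null columns are high for most genes, Perp at 11.01 to 11.06 among them, and array 4 of D1709A and of WT-DICER1 differ from their neighbours in opposite directions.

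Dicer-null cells had higher levels of most of these genes than Dicer-WT cells. Of 32 genes, 23 were called higher and 3 lower, while 57.9% of all genes were called, 30.7% higher and 27.2% lower. The median difference over the 32 genes was 0.39, against 0.01 over all genes tested. The higher genes included Perp, Plk2, Casp8, Bak1 and Pmaip1, and the 3 lower genes were Casp9 and the DNA damage recognition genes Ddb2 and Xpc. Dicer-null and Dicer-WT are single lines, so genotype and line cannot be told apart. The mean level of fibroblast or feeder markers was 6.76 to 6.79 in Dicer-null and 6.58 to 6.70 in Dicer-WT cells. That of 11 measured differentiation markers was 7.45 to 7.49 against 7.24 to 7.27. Among these, Nes was 7.67 against 6.38, and Eomes went the other way, at 7.88 against 9.33. Of 10 tested in each list, 3 were called higher and 1 lower. Their part in the result was not tested.

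Among p53 and its inhibitors, Mdm2 was 11.37, 11.43 and 11.34 on the Dicer-null arrays and 10.65 and 10.62 on the Dicer-WT arrays. The Dicer-null values were all the higher ones, and the difference was 0.74 (SE 0.126, 1.67-fold, adjusted p = 1.5e-05). Ppm1d, the phosphatase that removes activating phosphates from p53 and from damage kinases, rose by 0.40 (SE 0.0497). Mdm4 was 11.36 to 11.37 in Dicer-null and 11.42 to 11.49 in Dicer-WT cells, a difference of -0.09 that was not called (adjusted p = 0.289).

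In the BCL2 family 6 of 8 measured genes rose and 0 fell, pro-apoptotic and protective members alike. Bak1, which forms pores in the outer mitochondrial membrane, was 10.19, 10.25 and 10.16 in Dicer-null and 9.06 and 9.16 in Dicer-WT cells. With no overlap between the lines, the difference was 1.09 (SE 0.0881, 2.13-fold, adjusted p = 7.33e-11). Pmaip1 (NOXA), a BH3-only protein that binds MCL1, was 9.41, 9.29 and 9.40 against 8.27 and 8.37, a rise of 1.05 (SE 0.105, adjusted p = 3.65e-09). Bcl2l11 (BIM), a BH3-only protein that engages all protective BCL2 proteins, rose by 0.89 (SE 0.161). The protective genes rose as well, Mcl1 by 0.43 (SE 0.0474), Bcl2l1 by 0.32 (SE 0.0557) and Bcl2 by 0.20 (SE 0.0741), although the call of Bcl2 was lost without Dicer-null array 1 or Dicer-WT array 2 (adjusted p up to 0.173). Bbc3 (PUMA) and Bid, BH3-only activators, differed by 0.17 and -0.06 and were not called.

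The 3 membrane genes tested all rose in Dicer-null cells. Perp, a tetraspan membrane protein of the p53 death response, had the largest difference of the list, with 11.01, 11.03 and 11.06 against 9.59 and 9.73. That is a difference of 1.38 (SE 0.158, 2.6-fold, adjusted p = 3.73e-08). Tnfrsf10b, the mouse receptor for the death ligand TRAIL, rose by 0.75 (SE 0.0812), and Eda2r, a p53-induced receptor for ectodysplasin A2, by 0.32 (SE 0.0421).

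Casp8, the initiator caspase of death receptors, was 9.06, 9.14 and 9.09 in Dicer-null cells and 7.83 and 7.82 in Dicer-WT cells. The gap was far wider than the spread within either line, with a difference of 1.27 (SE 0.116, 2.42-fold, adjusted p = 6.92e-10). Apaf1, the scaffold of the apoptosome, rose by 0.74 (SE 0.0482), and Casp9, the caspase that this scaffold activates, fell by 0.23 (SE 0.063, adjusted p = 0.00259).

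Of the 11 cell cycle and stress genes 8 rose and 0 fell. Plk2, a polo-like kinase induced by p53, was 9.59, 9.56 and 9.52 against 8.23 and 8.30, a rise of 1.29 (SE 0.215, 2.44-fold). Phlda3, a p53-induced repressor of AKT, rose by 0.67 (SE 0.114), Ccng1 (cyclin G1) by 0.48 (SE 0.0407), Gadd45g by 0.45 (SE 0.0812) and Gadd45b by 0.39 (SE 0.107). The last pair are stress sensors that bind growth and checkpoint kinases. Sesn1, a sestrin that restrains mTORC1 signalling, rose by 0.30, the RNA-binding protein gene Zmat3 by 0.29 and the stress protein gene Trp53inp1 by 0.25, with the calls of Sesn1 and Zmat3 lost without Dicer-WT array 1 (adjusted p = 0.0675 and 0.0709). Sesn2 (-0.07), Gadd45a (-0.07) and the exonuclease gene Aen (-0.09) were not called.

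DNA repair and nucleotide supply were split. The translesion polymerase gene Polk rose by 0.79 (SE 0.0796) and Rrm2b, the p53-induced subunit of ribonucleotide reductase, by 0.67 (SE 0.132). Ddb2 and Xpc, which find ultraviolet damage for nucleotide excision repair, fell by 0.37 (SE 0.0967) and 0.19 (SE 0.0676), and the call of Xpc was lost without Dicer-null array 3 or Dicer-WT array 2 (adjusted p up to 0.112). Centring each array on its median shifted all genes by 0.08 in this comparison and gave 24 higher and 2 lower calls among the 32 genes, beside 37.5% higher and 20.7% lower over all genes.

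Relative to eGFP, wildtype DICER1 in Dicer-null cells went with higher levels of some of these genes and lower levels of others. Here 13 of 32 genes rose and 9 fell, against 59.5% of all genes called (30.8% higher, 28.7% lower), and the median difference was 0.11 against 0.02 over all genes. The genes that fell included the pore former Bak1, the BH3-only genes Bid and Bcl2l11, Perp and Casp8, and those that rose included the p53 inhibitors Mdm2 and Ppm1d and the p53 targets Eda2r and Phlda3. Fibroblast or feeder markers moved with this comparison: their mean level over 13 measured genes was 6.75 to 6.95 in eGFP and 7.46 to 7.55 in WT-DICER1 cells, 6 of the 10 tested were called higher and 1 lower, with Acta2 2.75 higher and Lum near 4 in both (4.10 and 4.08). Differentiation markers were at 7.31 to 7.33 and 7.54 to 7.88, 4 of 10 called higher and 1 lower, and 5 of the 10 had a positive difference. Eomes was at 7.31 against 8.64 and Gata6 at 7.06 against 8.21, while Pax6 fell, from 8.48 to 7.51. The part of both lists in these results was not tested.

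Bak1 fell the most. It was 10.15, 10.11 and 10.30 with eGFP, and from 9.35 to 9.68 with a median of 9.40 on the 6 WT-DICER1 arrays. No array overlapped, and the difference was -0.74 (SE 0.0737, 0.598-fold, adjusted p = 3.38e-09). Perp was 10.50, 10.51 and 10.58 with eGFP and from 9.66 to 10.32 with a median of 9.82 with wildtype DICER1, where array 4 was the highest. It fell by 0.66 (SE 0.132), Bcl2l11 by 0.56 (SE 0.135), Casp8 by 0.51 (SE 0.0972) and Bcl2, which protects from death, by 0.21 (SE 0.062). Sesn2 fell by 0.52 (SE 0.117), while Rrm2b and Polk fell by 0.28 and 0.17.

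Eda2r rose the most clearly. It was 10.19, 10.10 and 10.15 with eGFP and from 10.55 to 10.63 with a median of 10.62 with wildtype DICER1. The lowest WT-DICER1 array lay above every eGFP array, and the difference was 0.46 (SE 0.0353, 1.38-fold, adjusted p = 3.28e-11). Phlda3 rose by 0.50 (SE 0.0956), Ppm1d by 0.33 (SE 0.0416), Gadd45g by 0.30 (SE 0.068), Trp53inp1 by 0.23 (SE 0.0278), Ddb2 by 0.22 (SE 0.0809), Apaf1 by 0.18 (SE 0.0404), Casp9 by 0.18 (SE 0.0527), Bcl2l1 by 0.17 (SE 0.0466) and Mcl1 by 0.12 (SE 0.0396). In all, 12 genes had every WT-DICER1 array above every eGFP array and 7 every array below, against 28.7% and 26.7% of all genes.

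The smaller changes depended on single arrays. Of the 22 calls 7 were lost without 1 array: Mdm2 (0.25, adjusted p = 0.0408), Bid (-0.16), Ccng1 (0.09), Rrm2b, Polk, Ddb2 and Zmat3 (0.17). The array was WT-DICER1 array 4 for Mdm2, Bid, Ccng1, Rrm2b and Zmat3, which then differed by 0.12, -0.11, 0.06, -0.19 and 0.12. Calls were also lost without any eGFP array (Mdm2), without eGFP array 1 or 3 (Rrm2b, Polk), 2 (Ddb2, Zmat3), 2 or 3 (Ccng1) or 3 (Bid), and without WT-DICER1 array 1 (Polk, Ddb2), 2 (Rrm2b, Polk, Ddb2) or 3 (Polk). Leaving out both arrays numbered 4 gave 13 higher and 12 lower calls, beside 32.6% and 31.6% of all genes, and Mdm2 was then 0.12 and still called (adjusted p = 0.00123). Ccng1, Rrm2b and Zmat3 then lost their calls (adjusted p = 0.0525, 0.0602 and 0.0748), and Mdm4 (0.21) and Xpc (0.14) became called higher and Tnfrsf10b (-0.19), Gadd45a (-0.15), Gadd45b (-0.27) and Plk2 (-0.12) lower. Plk2 was 0.10 with all arrays. Without the PGKnvA arrays the call of Mdm2 was lost (0.25, adjusted p = 0.0621) and Xpc (0.12) became called higher.

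The parental comparison and the transgene comparison share no array, but first arrays of Dicer-null, Dicer-WT and WT-DICER1 are tied by 1 exact relation, as given above. Both comparisons set cells with wildtype Dicer against cells without it. Turned to that direction, 11 genes were lower in the Dicer-WT line and higher with wildtype DICER1, against 4.14% of all genes: Mdm2, Ppm1d, Apaf1, Bcl2l1, Mcl1, Gadd45g, Ccng1, Zmat3, Trp53inp1, Phlda3 and Eda2r. The references differ: untransduced Dicer-null cells for the parental effect and eGFP cells, lower for most of the list, for the transgene effect. By group means, Mdm2 (11.10 against 11.38), Apaf1, Mcl1, Ccng1, Zmat3 and Phlda3 were lower in WT-DICER1 than in untransduced Dicer-null cells. Ppm1d, Bcl2l1, Gadd45g, Trp53inp1 and Eda2r (10.60 against 10.40) were higher there. The reverse pattern, higher in the Dicer-WT line and lower with the transgene, held for 0 of the 32 genes and for 2.7% of all genes. Another 7 were lower in both (Bak1, Perp, Casp8, Bcl2, Bcl2l11, Rrm2b and Polk, against 18.9% of all genes), 2 were higher in both (Casp9 and Ddb2, against 16.6%), and 12 were not called in at least 1 of the comparisons. Under the alternative settings and with single arrays left out the first group held 8 to 11 genes, beside 2.77 to 5.41% of all genes, and the 8 genes Ppm1d, Apaf1, Bcl2l1, Mcl1, Gadd45g, Trp53inp1, Phlda3 and Eda2r were in it each time. Mdm2, Ccng1 and Zmat3 all left it without WT-DICER1 array 4, and 1 or more of them without eGFP array 1, 2 or 3 or Dicer-WT array 1.

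The difference between these effects was itself fitted, as a comparison chosen after the data had been seen. It was called for 21 of 32 genes, 19 with the transgene effect above the parental effect and 2 below, against 42.8% of all genes (24.7% and 18.1%). The largest were Plk2 (1.39, SE 0.28), Pmaip1 (1.18, SE 0.137), Phlda3 (1.17, SE 0.149), Mdm2 (1.0, SE 0.164) and Apaf1 (0.92, SE 0.0629, adjusted p = 1.48e-11). Without the arrays numbered 4 it was called for 25 genes, 22 above and 3 below, beside 28.4% and 22.2% of all genes. Mdm4 (0.12), Bcl2l11 (0.16), Rrm2b (0.48) and Gadd45a (-0.22) were gained, and Plk2 was then 1.17 and Mdm2 0.86. Pmaip1 shows the gap in single arrays: it was 9.0, 9.07 and 8.94 with eGFP, from 8.97 to 9.38 with a median of 9.13 with wildtype DICER1, and 8.27 and 8.37 in the Dicer-WT line. With wildtype DICER1 no array came near the Dicer-WT level. Sesn2 (-0.59, SE 0.182) and Bid (-0.23, SE 0.0872) went the other way, Bid losing its call without any 1 of 8 arrays (adjusted p up to 0.115), WT-DICER1 array 4 among them. Those of Bak1 (0.35) and Sesn1 (0.31) were lost without Dicer-WT array 1, and that of Sesn1 also without Dicer-null array 2, eGFP array 2 or WT-DICER1 array 1. Sesn2 was 11.23 and 11.22 in Dicer-WT, 11.11 to 11.19 in Dicer-null and 9.83 to 10.44 in WT-DICER1 cells, the lowest of the 3. Set directly against the Dicer-WT line, WT-DICER1 cells were higher in 16 genes and lower in 7, against 52.9% of all genes called (28.1% higher, 24.8% lower). The calls of Bbc3, Tnfrsf10b and Xpc among these were lost without either Dicer-WT array or without single WT-DICER1 arrays (1 or 3 for Bbc3, 4 for Tnfrsf10b, 1 or 4 for Xpc).

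**Figure D2:**
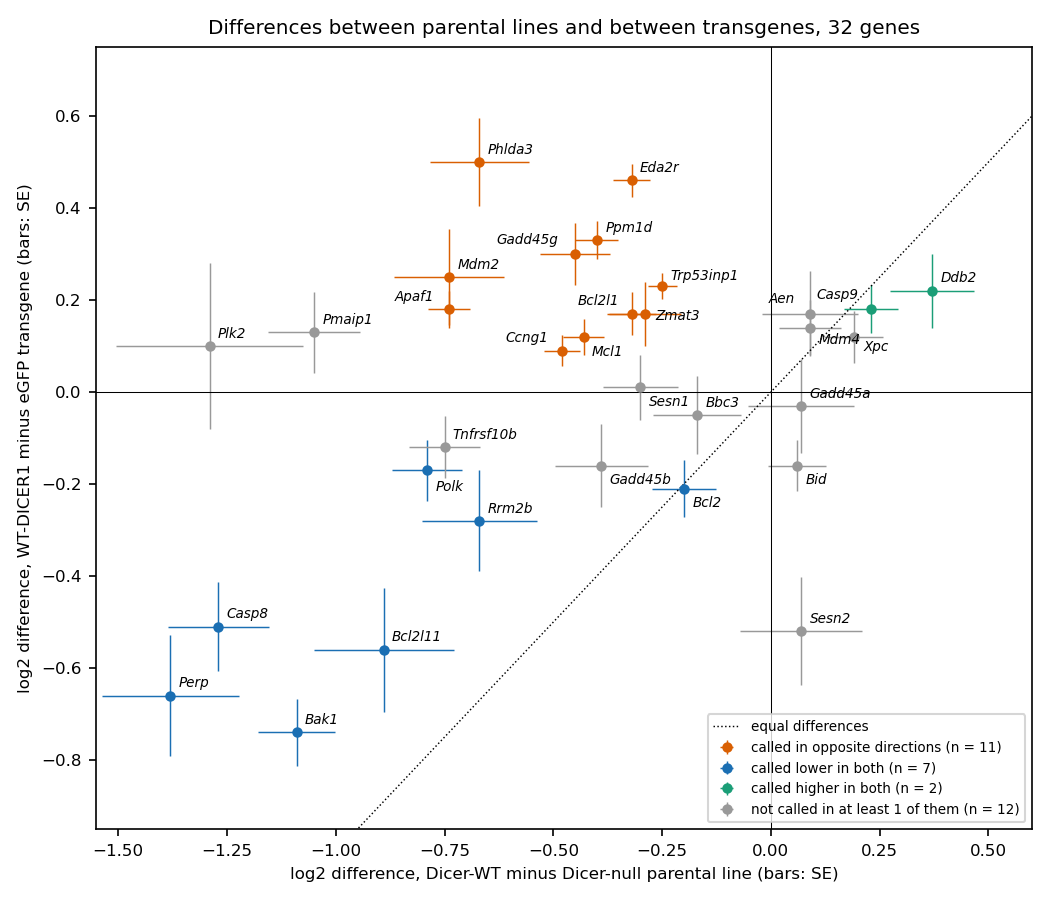
Each of 32 genes as a point, with the log2 difference Dicer-WT minus Dicer-null parental line on the horizontal axis and WT-DICER1 minus eGFP on the vertical axis, bars giving standard errors. The 11 orange genes lie at the upper left, lower in the Dicer-WT line and higher with wildtype DICER1, and the 7 blue genes at the lower left, Bak1 at -1.09 and -0.74 among them.

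Introducing eGFP itself went with lower levels of most of the list. Between eGFP and the untransduced Dicer-null line 23 of 32 genes fell and 2 rose, against 47.6% of all genes called (20.2% higher, 27.4% lower), with a median of -0.26 against -0.03 over all genes. Casp8 fell by 0.88 (SE 0.104), from 9.06 to 9.14 in the parental cells to 8.11 to 8.34 with eGFP. Phlda3 fell by 0.68 (SE 0.102), Sesn2 by 0.62 (SE 0.125), Bcl2l11 by 0.60 (SE 0.144), Mdm2 by 0.54 (SE 0.113) and Zmat3 by 0.52 (SE 0.0744). Gadd45b (0.47, SE 0.0956) and Gadd45a (0.30, SE 0.109) rose, and Bak1 (-0.01) and Bcl2l1 (0.00) were not called. Of the 25 calls 5 were lost without 1 array: Mdm4 (-0.19) without eGFP array 3, Gadd45a without Dicer-null array 3 or eGFP array 1, Ddb2 (-0.23) without Dicer-null array 1 or 2 or eGFP array 2, Trp53inp1 (-0.09) without Dicer-null array 1 or eGFP array 3, and Plk2 (-0.50) without any array of these groups. Centring the arrays gave 1 higher and 25 lower, beside 15.4% and 35.1% of all genes. This comparison shares the Dicer-null arrays with the parental comparison and the eGFP arrays with the transgene comparison, and vector, passage and time in culture cannot be told apart in it.

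Cells with a mutant DICER1 were next set against eGFP, each of the 5 mutant groups counting equally. Of 32 genes 6 rose and 8 fell, against 53.1% of all genes called (29.3% higher, 23.8% lower), with medians of -0.01 and 0.02. The comparison shares the eGFP arrays with the preceding ones, and fibroblast or feeder markers were again higher in the transgene cells, at 7.17 to 7.48 on the mutant arrays, where differentiation markers were at 7.26 to 7.66 (5 of 10 called higher and 1 lower in each list). Their part in the result was not tested.

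Rrm2b and Gadd45g moved the most, in opposite directions. Rrm2b was 8.69, 8.57 and 8.82 with eGFP, 7.69 to 8.22 with D1709A, 7.63 and 7.93 with D1709N, 7.89 to 8.06 with E1705K, 7.75 to 7.89 with D1810Y and 7.80 and 7.83 with E1813Q. Every mutant array lay below every eGFP array, with a difference of -0.83 (SE 0.105, 0.562-fold, adjusted p = 2.68e-07). Gadd45g was 7.91, 7.89 and 7.91 with eGFP, and every mutant array lay above these, with a difference of 0.82 (SE 0.0648, 1.76-fold, adjusted p = 8.97e-11). Zmat3 (0.42, SE 0.0664) was also above eGFP on every mutant array, and Bak1 (-0.38, SE 0.0703), Gadd45b (-0.38, SE 0.0853) and Polk (-0.30, SE 0.0635) were below on every one, so that 2 genes were separated upward and 4 downward, against 15.3% and 13.9% of all genes. Phlda3 (0.27), Aen (0.26), Bid (0.21) and Casp9 (0.20) rose without such separation of all arrays, and Perp (-0.52), Sesn2 (-0.47), Casp8 (-0.33) and Pmaip1 (-0.23) fell. Mdm2 (0.11), Mdm4 (-0.03) and Ppm1d (-0.01), the inhibitors of p53, were not called.

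Some of these calls rested on single arrays or on a set of arrays. That of Pmaip1 was lost without eGFP array 1 or 2 (adjusted p = 0.0515 and 0.0868) and that of Phlda3 without eGFP array 1 (adjusted p = 0.0501). Without the arrays numbered 4, 7 genes were higher and 12 lower, beside 32.4% and 27.1% of all genes: Mdm2 (0.09) became called higher and Tnfrsf10b (-0.10), Bcl2l11 (-0.27), Gadd45a (-0.12) and Ccng1 (-0.08) lower. In this fit the vector term shifts D1709N and E1813Q, as stated above. Without the PGKnvA arrays (8 higher and 8 lower, beside 31.6% and 24.9%) the call of Sesn2 was lost (-0.24, adjusted p = 0.066), Perp fell by 0.31, and Apaf1 (-0.13), Bcl2 (0.20) and Ppm1d (0.09, against -0.01 with all arrays) were called.

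Mutant against wildtype DICER1 is the comparison the series was built for. Of 32 genes 7 rose and 15 fell in the mutants, against 60.1% of all genes called (32.3% higher, 27.7% lower), with a median of -0.08 against 0.01. All 4 genes of DNA repair and nucleotide supply fell, as did Mdm4 and Ppm1d. Among the pro-apoptotic BCL2 family genes Bak1, Bcl2l11 and Bid rose and Pmaip1 fell. Several of these turned sign between sets of arrays, as given further on. Fibroblast or feeder markers were called higher for 0 and lower for 3 of 10, differentiation markers for 2 and 4 of 10, and their part in the result was not tested. The comparison shares the WT-DICER1 arrays with the transgene comparison.

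Eda2r had the smallest adjusted p of the list. It ran from 10.55 to 10.63 with a median of 10.62 on the WT-DICER1 arrays, and was 10.16 to 10.21 with D1709A, 10.01 and 9.97 with D1709N, 10.08 to 10.16 with E1705K, 10.29 to 10.37 with D1810Y and 10.18 on both E1813Q arrays. All mutant arrays lay below all wildtype arrays, by 0.45 on average (log2 difference -0.45, SE 0.0229, 0.734-fold, adjusted p = 2.05e-14). Its mutant mean was 0.01 from eGFP.

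Ppm1d showed the same separation. It ran from 11.15 to 11.34 with a median of 11.19 with wildtype DICER1, and was 10.78 to 10.96 with D1709A, 10.63 and 10.64 with D1709N, at most 11.04 with E1705K, 10.95 to 10.99 with D1810Y and 10.81 and 10.76 with E1813Q. The difference was -0.34 (SE 0.027, 0.788-fold, adjusted p = 5.5e-11). Ccng1 fell by 0.16 (SE 0.0221), from 12.83 to 12.94 with a median of 12.85 with wildtype DICER1 to 12.63 to 12.81 over the mutant arrays. Eda2r, Ppm1d and Ccng1 were the 3 genes with every mutant array lower, against 8.05% of all genes.

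Gadd45g and Bid were the 2 genes with every mutant array higher, against 8.97% of all genes. Gadd45g ran from 8.15 to 8.23 with a median of 8.22 with wildtype DICER1, and was 8.51 to 8.66 with D1709A, 8.98 and 9.03 with D1709N, 8.34 to 8.63 with E1705K, 8.61 to 8.89 with D1810Y and 8.69 and 8.85 with E1813Q. It rose by 0.52 (SE 0.0442, 1.43-fold, adjusted p = 2.52e-10). Bid, which carries the caspase 8 signal to mitochondria, ran from 9.12 to 9.35 with a median of 9.31 with wildtype DICER1, where array 4 was the lowest, and it lay at 9.48 or above on every mutant array. The difference was 0.37 (SE 0.0364, 1.29-fold, adjusted p = 2.55e-09).

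**Figure D3:**
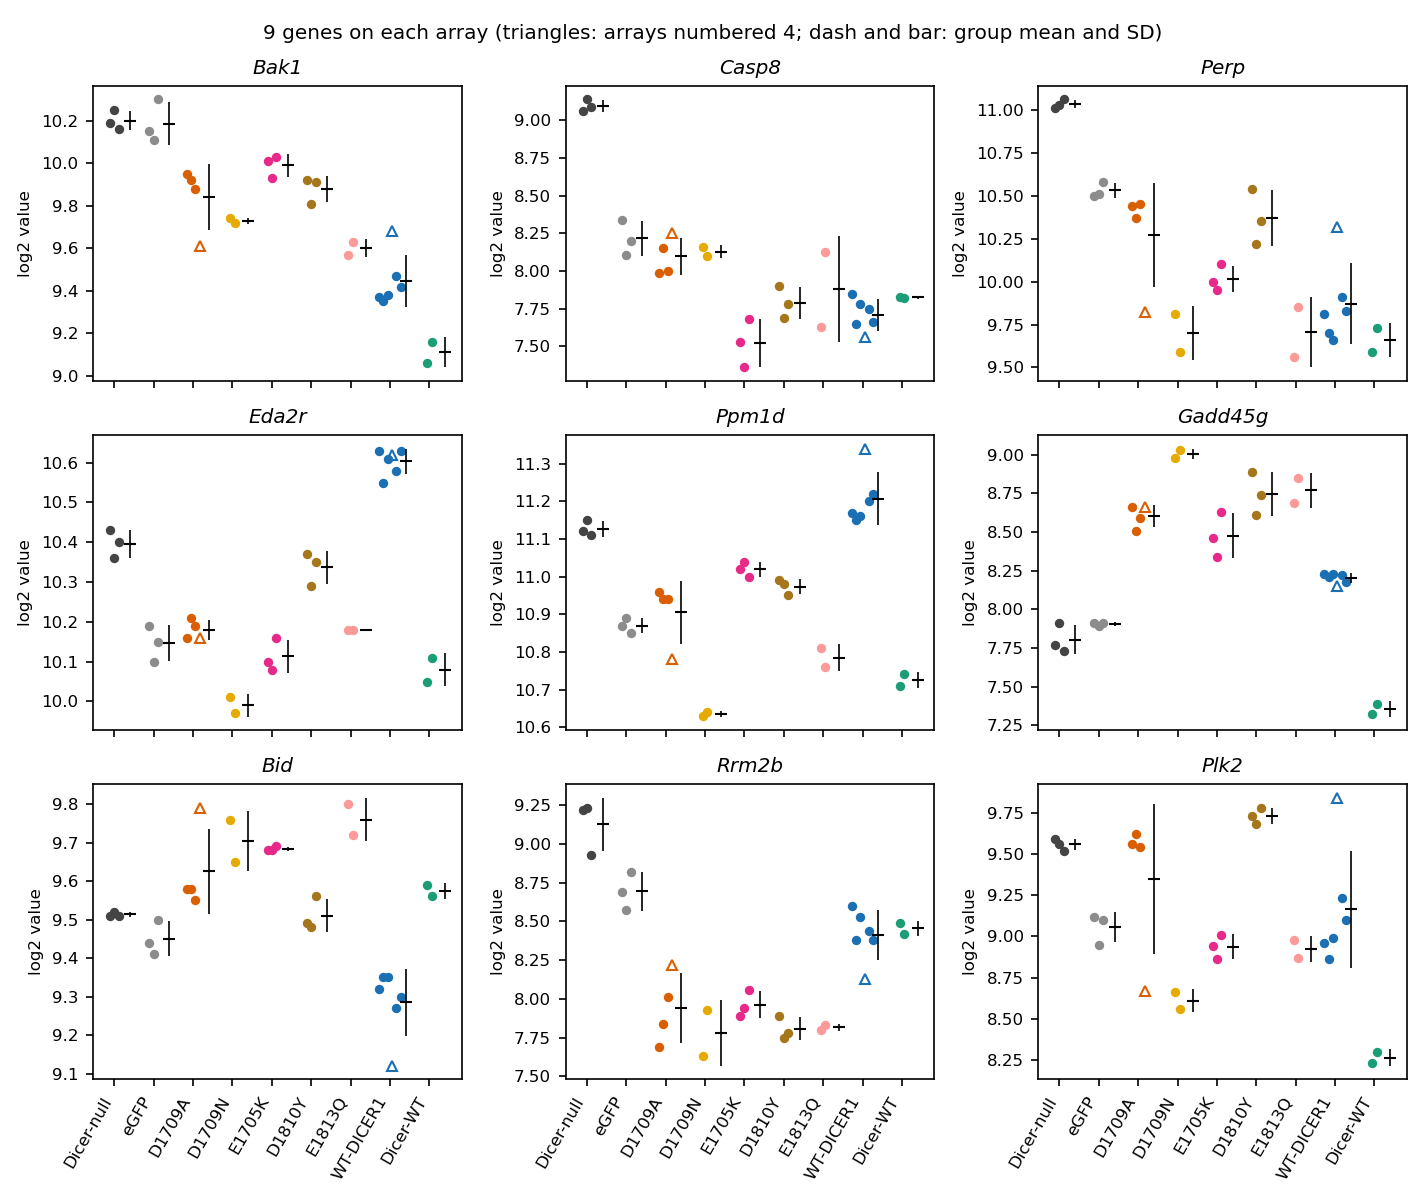
Log2 values of 9 genes on each of 28 arrays by group, with triangles for the arrays numbered 4 and a dash and bar for the group mean and SD, each panel with its own vertical axis. Eda2r and Ppm1d are higher on every WT-DICER1 array than on any mutant array, Gadd45g and Bid are lower, and for Plk2 the triangles lie at 8.67 (D1709A) and 9.84 (WT-DICER1), far from their groups.

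The remaining BCL2 family genes went both ways. Bak1 rose by 0.36 (SE 0.0479), and its mutant arrays, at 9.57 to 10.03, overlapped the wildtype ones only through WT-DICER1 array 4 at 9.68. Bcl2 rose by 0.33 (SE 0.0403) and Bcl2l11 by 0.33 (SE 0.0875), while Pmaip1 fell by 0.37 (SE 0.0571), Bcl2l1 by 0.16 (SE 0.0303) and Mcl1 by 0.11 (SE 0.0258). Apaf1 fell by 0.23 (SE 0.0262) and Casp8 rose by 0.18 (SE 0.0632). Bbc3 (-0.01), Casp9 (0.02), Perp (0.14) and Tnfrsf10b (0.03) were not called.

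Rrm2b fell by 0.55 (SE 0.0715, 0.683-fold), from 8.13 to 8.60 with a median of 8.41 with wildtype DICER1 to the mutant values given above, which overlap through WT-DICER1 array 4 and D1709A array 4. Ddb2 fell by 0.16, Polk by 0.13 and Xpc by 0.11. The calls of Casp8, Ddb2 and Xpc were lost without WT-DICER1 array 6 (adjusted p = 0.0745, 0.0786 and 0.0523), and that of Casp8 also without E1813Q array 2 (adjusted p = 0.0517). Trp53inp1 fell by 0.24 (SE 0.0181), Phlda3 by 0.24 (SE 0.0622), Gadd45b by 0.22 (SE 0.0582) and Mdm4 by 0.17 (SE 0.039), and Zmat3 rose by 0.25 (SE 0.0453). Mdm2 (-0.14, adjusted p = 0.0815), Sesn1 (0.01), Sesn2 (0.05), Gadd45a (-0.06), Aen (0.09) and Plk2 (-0.05) were not called.

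Labels and array numbers divide the mutant and wildtype arrays into 3 sets, the ENvA arrays numbered 1 to 3, the ENvA arrays numbered 4 and the PGKnvA arrays, and each set holds both kinds of cell. The sets are not independent. The mean of the PGKnvA wildtype arrays equals that of the 4 ENvA wildtype arrays within 7.5e-05, and both arrays numbered 4 mirror each other. Within the sets 14 of 32 genes had the same sign in all 3, against 45% of all genes. Eda2r differed by -0.39, -0.46 and -0.52 in that order, Ppm1d by -0.18, -0.56 and -0.50, Gadd45g by 0.38, 0.51 and 0.68, and Bid by 0.25, 0.68 and 0.45. Pmaip1 (-0.30, -1.01 and -0.30), Trp53inp1 (-0.16, -0.28 and -0.33), Apaf1 (-0.33, -0.23 and -0.11) and Ccng1 (-0.11, -0.28 and -0.18) also kept their sign. Others turned: Plk2 differed by 0.48, -1.18 and -0.39, Bcl2l11 by 0.70, -0.76 and 0.11, Perp by 0.55, -0.49 and -0.17, Bak1 by 0.56, -0.07 and 0.22, Mdm2 by 0.14, -0.87 and -0.30, and Rrm2b by -0.63, 0.09 and -0.61. Mdm4 (-0.26, 0.30 and -0.18), Ddb2 (-0.33, 0.16 and -0.01), Xpc (-0.10, 0.05 and -0.17), Mcl1 (-0.22, 0.07 and -0.02) and Zmat3 (0.46, -0.05 and 0.04) also turned in the set numbered 4.

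With each of the 3 sets taken as 1 replicate, limma called 0 of 13956 genes and 0 of the 32 (3192 genes and 7 of the 32 had an unadjusted p under 0.05), and without the variance trend it called 154 genes and 0 of the 32. Because the sets are tied in the deposited values, these counts do not rest on 3 independent replicates. Without the arrays numbered 4, 12 genes were higher and 15 lower, beside 35% and 29.7% of all genes. In this fit the vector term shifts D1709N and E1813Q, as stated above, so the values still depend on array 4. Perp (0.26), Tnfrsf10b (0.09), Sesn2 (0.16), Aen (0.17) and Plk2 (0.13) became called higher in the mutants, and the called differences of Phlda3 (-0.14), Gadd45b (-0.14) and Polk (-0.08) shrank by over 1.5 times. Without the PGKnvA arrays (9 higher and 12 lower, beside 30.3% and 25.9%) the calls of Casp8 (0.10), Polk (-0.08), Xpc (-0.07) and Phlda3 (-0.18) were lost, Ddb2 (-0.26), Mcl1 (-0.17) and Zmat3 (0.39) moved further from 0, and Perp (0.35), Tnfrsf10b (0.16) and Sesn2 (0.28) became called higher.

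**Figure D4:**
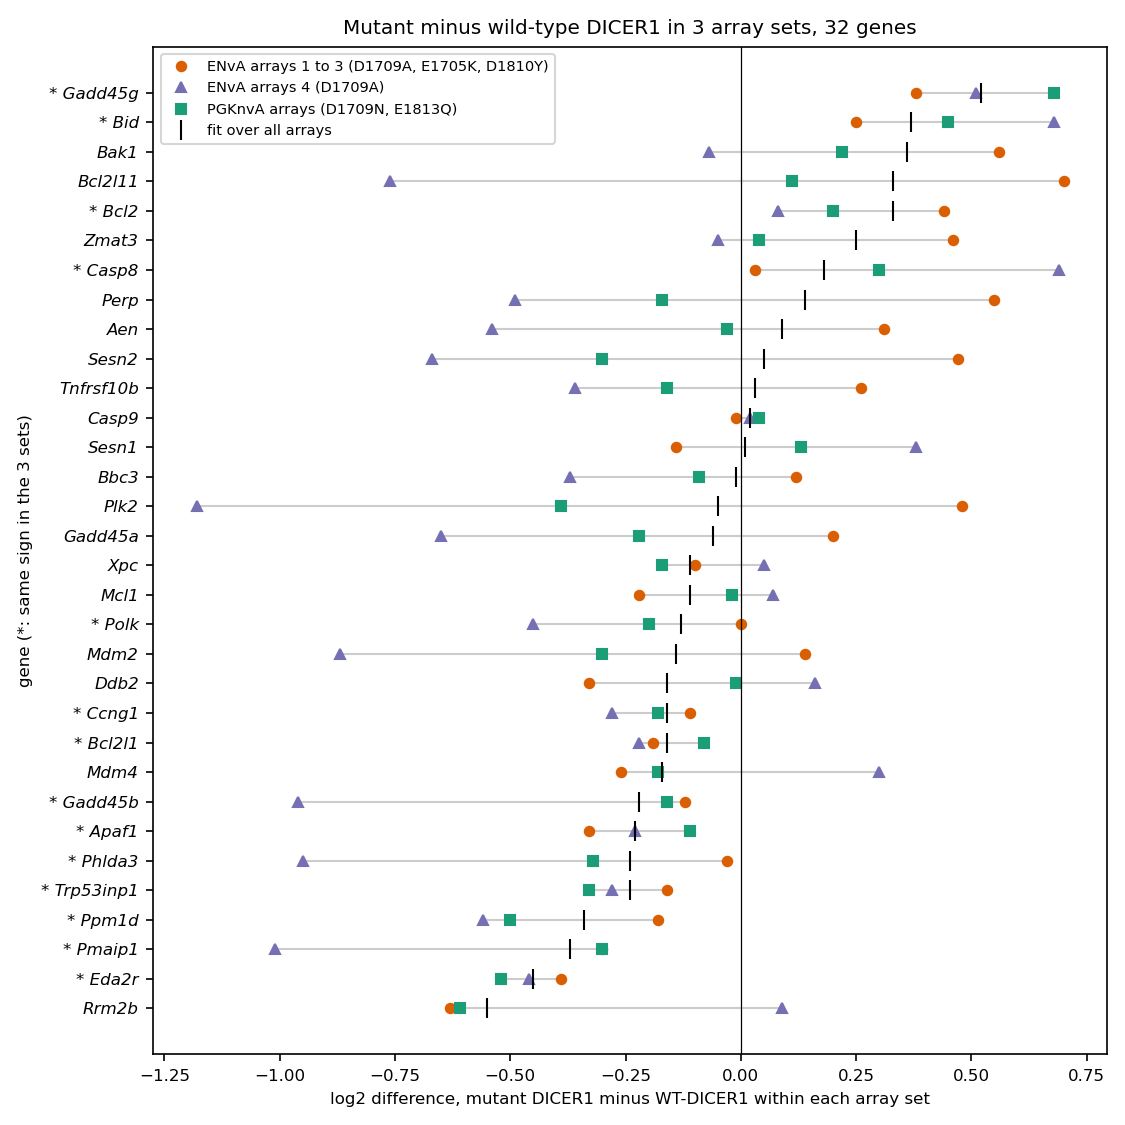
Log2 difference of mutant minus WT-DICER1 within each of 3 array sets for 32 genes, ordered by the fit over all arrays (vertical ticks), with asterisks at the 14 genes of 1 sign. Eda2r (-0.39 to -0.52) and Gadd45g (0.38 to 0.68) have close sets, while Plk2 runs from -1.18 to 0.48.

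Taken singly, the mutants each had genes that rose and genes that fell against wildtype DICER1. The counts of higher and lower genes were 7 and 11 for D1709A (45.8% of all genes called, 24.1% higher and 21.7% lower), 4 and 13 for D1709N (40%, 21.5% and 18.5%), 6 and 11 for E1705K (48%, 27.3% and 20.7%), 11 and 9 for D1810Y (53.7%, 28.5% and 25.2%) and 4 and 6 for E1813Q (40.6%, 21.1% and 19.5%). D1709N and E1813Q rest on 2 arrays each, and 8 of the 17 calls of D1709N (Mdm2, Bak1, Tnfrsf10b, Casp8, Gadd45b, Phlda3, Polk and Xpc) and 4 of the 10 of E1813Q (Bcl2, Sesn1, Sesn2 and Ccng1) were lost without 1 array. In all 5 mutants 2 genes, Bid and Gadd45g, rose and 4, Eda2r, Ppm1d, Ccng1 and Rrm2b, fell, against 9.29% and 8.08% of all genes. The call of Ccng1 was also lost for D1810Y without D1810Y array 2 (adjusted p = 0.0607), and that of Tnfrsf10b there without D1810Y array 1 or WT-DICER1 array 2. For D1709A, Phlda3 (-0.25) and Gadd45b (-0.32) came to -0.13, no longer called, and -0.21 without array 4 of either group, and Bcl2l1 (-0.12) lost its call without any 1 of 6 arrays, both numbered 4 among them. For E1705K, Gadd45b (-0.27) came to -0.17 and lost its call without WT-DICER1 array 4, and for D1709N, Xpc (-0.26) ranged from -0.40 to -0.12 with either D1709N array left out. The 5 comparisons share the WT-DICER1 arrays.

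A test of any difference among the 5 mutants, in which wildtype arrays enter only through the vector term and the shared spread, called 15 of 32 genes, against 43.5% of all genes. Trp53inp1 led (F = 25.9, adjusted p = 1.01e-06), and its levels were 11.86 to 11.94 with D1810Y, 11.65 to 11.70 with D1709A, 11.69 to 11.74 with E1705K, 11.67 and 11.69 with E1813Q and 11.49 and 11.54 with D1709N. D1810Y was the highest and D1709N the lowest without overlap with the others. Apaf1 (F = 19.4, adjusted p = 8.68e-06) was 9.60 to 9.69 with E1705K, the lowest, and 10.08 and 10.19 with E1813Q, the highest, and the other mutants lay at 9.77 to 9.93. Eda2r was the third (F = 15.1, adjusted p = 4.8e-05), with D1810Y highest and D1709N lowest.

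Casp8 and Bcl2l1 had their lowest mutant means in E1705K. Casp8 was 7.53, 7.36 and 7.68 with E1705K and 7.63 to 8.25 on the other mutant arrays (F = 10.2, adjusted p = 0.000504), and the E1813Q arrays at 7.63 and 8.13 spanned most of that range. Bcl2l1 was 8.74, 8.73 and 8.83 with E1705K and 8.96 to 9.15 with the others, without overlap (F = 10.8, adjusted p = 0.000372). Plk2 was 9.73, 9.68 and 9.78 with D1810Y, 9.54 to 9.62 on D1709A arrays 1 to 3, 8.67 on D1709A array 4, 8.86 to 9.01 with E1705K, 8.98 and 8.87 with E1813Q and 8.66 and 8.56 with D1709N (F = 6.05, adjusted p = 0.0068). Rrm2b (F = 0.682, adjusted p = 0.68) was not called, and its 14 mutant arrays lay between 7.63 and 8.22. Without D1709A array 4 the test called 23 genes, beside 49.9% of all genes, and without WT-DICER1 array 4, which enters through the vector term and the shared spread, 25, beside 54.3%.

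Genes of the pathway outside the list were counted from 3 further lists. Of 17 other p53 targets 8 rose and 3 fell in Dicer-null against Dicer-WT cells (47.1% and 17.6%, beside 30.7% and 27.2% of all genes), with Btg2, an antiproliferative gene, 1.80 higher (SE 0.0634) and Sfn (14-3-3 sigma) 1.52 higher (SE 0.232). The counts were 3 and 7 for wildtype DICER1 against eGFP (17.6% and 41.2%, beside 30.8% and 28.7%), with Btg2 lower by 0.56 (log2 difference -0.56, SE 0.0531), 5 and 8 for the mutants against eGFP (29.4% and 47.1%, beside 29.3% and 23.8%), and 7 and 1 for the mutants against wildtype DICER1 (41.2% and 5.88%, beside 32.3% and 27.7%), with Pml, the nuclear body scaffold, 0.52 higher (SE 0.026). Of 20 regulators of p53, 6 rose and 8 fell in Dicer-null cells (30% and 40%, so the higher share is that of all genes), with the damage kinase gene Atr 1.46 lower (log2 difference -1.46, SE 0.0832). Hipk2, a kinase that phosphorylates p53, rose by 1.05 (SE 0.0322) and the deacetylase gene Sirt1 fell by 0.64 (SE 0.0408) in mutants against wildtype DICER1, where 6 regulators rose and 5 fell (30% and 25%, near all genes). Of 23 other apoptosis genes 7 rose and 7 fell in Dicer-null cells (30.4% each, near all genes), with Casp2 1.42 higher (SE 0.0726), and 9 rose and 8 fell with wildtype DICER1 against eGFP (39.1% and 34.8%), with the mitophagy receptor gene Bnip3 3.27 higher (SE 0.226). Bnip3 fell by 1.28 (SE 0.147) in mutants against wildtype DICER1, where 6 of these genes rose and 10 fell (26.1% and 43.5%).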

How the data were processed

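RNA of 28 ES cell samples was extracted with Qiagen miRNeasy, and targets were made with Ambion's WT expression kit, per the labels' protocols. The deposited values are log2 expression per probe set, made with RMA in Partek 6.6 per the submitters' processing notes. Settings, and any adjustment behind the exact relations among arrays: not given in the sources used here. Of 35556 probe sets 21789 carry 1 symbol. For each gene the probe set with the highest mean was kept, and genes below the 30th percentile were left out, which gave 13956 genes. All 28 arrays entered 1 limma 3.58.1 fit in R 4.3.3 (lmFit and eBayes with trend), with a coefficient per group, a term for the PGKnvA vector (estimated at 0 here) and 18 residual degrees of freedom. The steps were tested on simulated data with independent arrays, which lack the exact relations of the deposited values, so that test does not cover them. Tables and figures used Python 3.11.15. Any of the 35 genes could be named, ordered by role and by size of change, with Dicer1 as a check and up to 4 called genes of each other list. The genes and lists were chosen with earlier results of these data known. Arrays hold no read depth, and the number of arrays limits the precision. Alternatives covered the filter, probe set choice, centring, vector term, replicate block, trend, robust fitting, groups fitted and each array left out; the array sets, and the comparison of the transgene with the parental effect, were added after seeing the data. Cdkn1a shares its probe set with other symbols and was not analysed here.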

Additional observations from a re-analysis of the deposited data

Results flagged for a closer look

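Among 66 pairs of a gene with the D1709A group (4 arrays) or the WT-DICER1 group (6 arrays), 27 held 1 array far from the rest of its group by Dixon's criterion, which chance meets in about 1 in 20 groups. Array 4 of WT-DICER1 gave 14 of them and array 4 of D1709A 12. On D1709A array 4 the lowest log2 values of the group were Mdm2 10.63, Pmaip1 8.37, Perp 9.82, Tnfrsf10b 10.55, Bcl2l11 9.37, Sesn2 9.77, Gadd45b 9.36, Ppm1d 10.78, Aen 8.76, Phlda3 10.02 and Plk2 8.67, and the highest was Bid 9.79. On WT-DICER1 array 4 the highest were Mdm2 11.5, Bak1 9.68, Bcl2l11 10.13, Sesn2 10.44, Gadd45b 10.32, Ccng1 12.94, Ppm1d 11.34, Polk 9.52, Aen 9.3, Phlda3 10.97 and Plk2 9.84, and the lowest were Mdm4 11.1, Bid 9.12 and Mcl1 12.01. The remaining one was Casp9 on D1709A array 3, at 8.25 against 8.33 to 8.34 on the others. Since the deviations of both arrays numbered 4 mirror each other, these are not separate observations.

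The effect of the wildtype DICER1 transgene (against eGFP) and that of wildtype Dicer in the parental lines (against Dicer-null) differed for 21 of 32 genes in the limma fit. This was against 42.8% of all genes (24.7% higher and 18.1% lower), in a comparison chosen after the data had been seen. The transgene effect was the higher one for Mdm2 by 1.0, Pmaip1 1.18, Apaf1 0.92, Perp 0.72, Tnfrsf10b 0.63, Eda2r 0.77, Casp8 0.76, Bak1 0.35, Bcl2l1 0.49, Mcl1 0.56, Gadd45g 0.75, Ccng1 0.57, Ppm1d 0.74, Polk 0.62, Zmat3 0.46, Trp53inp1 0.48, Sesn1 0.31, Phlda3 1.17 and Plk2 1.39 on the log2 scale. For Bid (-0.23) and Sesn2 (-0.59) it was the lower one. The calls of Bid, Sesn1 and Bak1 were lost without single arrays, as given above.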

How the results depend on the processing

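Counts of called genes stayed within 1.5 times the reported count in all alternatives but these. For mutants against wildtype DICER1, taking each array set as 1 replicate left 0 of 22 calls. For D1709N against wildtype DICER1 (17 calls), fitting only the groups compared gave 11, and leaving out single arrays gave 10 to 20. For the test among mutants (15 calls), leaving out the vector term, which narrows only the errors, gave 23 (64.1% of all genes), and leaving out single arrays 13 to 25. Single genes that turned past the threshold were Plk2 without the arrays numbered 4, at -0.12 for wildtype DICER1 against eGFP and 0.13 for mutants against wildtype DICER1, and Ppm1d without the PGKnvA arrays, at 0.09 for mutants against eGFP. The mutant value of Plk2 includes the shift of D1709N and E1813Q by the vector term. The causes were not tested. Arrays of the same number are tied in places by exact relations in the deposited values (the arrays numbered 4 and first arrays of 5 groups, with a lowest correlation of -1.0), but over 88 same-numbered pairs the median correlation was -0.019 and 20 were over 0.1, so the check gives no pairing of the arrays by number. The replicate block could only be fitted without the vector term. It lost 1 of the 26 calls between the parental lines and 4 of the 22 for wildtype DICER1 against eGFP. Lost as well were 3 of the 22 for mutants against wildtype DICER1 and 1 of the 25 for eGFP against Dicer-null. No call changed for mutants against eGFP, and the test among mutants called 20 genes. Counts in this section without a share of all genes beside them show only how calls moved, and are not read as results about the list. Centring shifted no comparison by more than 0.08.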

Other observations

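The GC box, GGGCGG on either strand, was in 24 of the 36 promoter windows of the listed genes, against 32.7% of all 32851 windows, as a description of these windows. Across the 9 groups the widest ranges of group means were those of Gadd45g (1.65), Sesn2 (1.61), Casp8 (1.57), Plk2 (1.46), Perp (1.38) and Rrm2b (1.35) on the log2 scale, and the narrowest were those of Gadd45a (0.35) and Mdm4 (0.38). Gadd45g was lowest in Dicer-WT cells, at 7.32 and 7.39, and highest with D1709N, at 8.98 and 9.03.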
